A study of Mus musculus with 4 samples.

Results

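The 9 immune checkpoint ligand genes, given here by their mouse symbols Cd274, Pdcd1lg2, Cd80, Cd86, Nectin2, Pvr, Lgals9, Vsir and Cd276, were followed across the cell classes of Pan02 tumours. They were taken by symbol from the gene list of the deposited matrices, where all 9 members were found among 32285 genes. Pan02 is a mouse pancreatic cancer line, grown here under the skin of female C57BL/6 mice that were 6 to 7 weeks old. Mice entered the groups at a tumour size of about 50 mm3 and were injected into the peritoneum 3 times a week. The anti-PD-1 group received 200 µg of the anti-PD-1 clone RMP1-14 with 25 mg/kg IgG. The anti-LIF group received 25 mg/kg of an antibody to the cytokine LIF, the combo group received both antibodies, and the control group received 25 mg/kg IgG. Tissue of 3 samples was combined into 1 single-cell 3′ RNA library per group, so animals cannot be told apart and no difference between groups could be tested.

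Checkpoint ligands are surface proteins, or in the case of galectin-9 a secreted lectin, that tumour, stromal and myeloid cells present to T cells and NK cells. CD274 (PD-L1) and PDCD1LG2 (PD-L2) bind PD-1, the receptor that the anti-PD-1 antibody blocks, and interferon gamma is a well known inducer of CD274. CD80 and CD86 bind both the activating receptor CD28 and the inhibitory receptor CTLA-4. Nectin-2 and PVR bind the inhibitory receptor TIGIT and the activating receptor CD226. Galectin-9, the product of Lgals9, is a reported ligand of TIM-3, VISTA, the product of Vsir, is an inhibitory B7-like protein of myeloid and T cells, and B7-H3, the product of Cd276, is a B7 family protein found on many tumours and stromal cells.

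Cd274 and Pdcd1lg2 are neighbours on chromosome 19 and lie on the same strand, 22823 bases apart in the GRCm38 annotation. Their promoter windows are shown because the pair differed in range across classes and in ratios to control, described below. Both were on average highest in mature dendritic cells. Each window is the 250 bases before the RefSeq gene start in the build GRCm38.p6, on the plus strand, at chr19:29367188-29367437 for Cd274 and chr19:29410669-29410918 for Pdcd1lg2. Capitals mark a match to the interferon regulatory factor core AANNGAAA on either strand.
Cd274: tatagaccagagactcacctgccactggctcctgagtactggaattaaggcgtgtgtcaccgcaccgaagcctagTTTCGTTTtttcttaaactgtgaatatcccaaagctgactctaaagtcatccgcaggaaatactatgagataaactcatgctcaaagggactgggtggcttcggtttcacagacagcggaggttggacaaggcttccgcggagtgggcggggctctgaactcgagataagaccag
Pdcd1lg2: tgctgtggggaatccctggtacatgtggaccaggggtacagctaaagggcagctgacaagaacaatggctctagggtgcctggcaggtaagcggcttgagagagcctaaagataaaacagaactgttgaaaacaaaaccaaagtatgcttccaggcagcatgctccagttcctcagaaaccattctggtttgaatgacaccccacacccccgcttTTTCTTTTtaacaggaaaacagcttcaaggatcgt
Each window held 1 such match, at 175 bases before the start for Cd274 and 35 bases before it for Pdcd1lg2. The same core was present in 21.3% of 32851 mouse promoter windows of this length. Neither window held a match on either strand to the longer interferon-stimulated response element (ISRE), which contains the core and was present in 2.98% of windows. A match is a run of letters and not a measured binding site. Promoter windows were found for 7 of the 9 members.

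In the same annotation Cd274 spans chr19:29367455-29388095 and Pdcd1lg2 chr19:29410919-29471161. Cd80 spans chr16:38455561-38496335 and Cd86 chr16:36603869-36666081. Nectin2 at chr7:19716644-19750483 and Pvr at chr7:19903578-19921160 lie 153094 bases apart. Lgals9 spans chr11:78962974-78984946, Vsir chr10:60346851-60372684 and Cd276 chr9:58524298-58555437. Cd274, Pdcd1lg2, Nectin2 and Pvr each overlap an antisense gene, and Vsir overlaps Cdh23 on the other strand. Whether counting used strand is not given in the sources used here, and without it reads of such partners cannot be told apart.

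After filtering, 14392 cells of the anti-PD-1 library, 14014 of anti-LIF, 16397 of combo and 18640 of control remained, with median UMI counts of 1731, 1674.5, 2288 and 2171 in that order. Each cell was assigned by its marker genes, so that for example macrophages stands for macrophage-like cells. Classes took in 49435 cells, and 10 classes had at least 50 cells in every library. Cells were unevenly spread, with 3843 macrophages with anti-PD-1, 3718 with anti-LIF and 3959 with combo, against 475 in control. T cells went the other way, with 1501, 1071 and 1265 in the same order against 5914 in control. Cancer cells had Xist, a marker of female host cells, at 2.15 to 4.02 CPM, and the other 9 of those classes had it at 36.1 CPM or more. In the cancer cells 10 of 12 fixed markers were highest among all classes, the exceptions being Hmga2 and Epcam. All 8 of 8 markers were highest in their class for T cells, macrophages and mature dendritic cells, 6 of 9 for endothelial cells and 3 of 6 for type 2 dendritic cells. The same markers assigned the cells, so these counts are largely fixed in advance and do not test the class names. The libraries shared 247 to 325 cell barcodes per pair, which touched 5.22% of the cells. Of 1021 such pairs of gated cells, 14.3% were of the same class, beside 15.7% computed from the class shares. Levels are given as CPM, the summed UMIs of a gene scaled to the same total of UMIs for every class and library, and brackets hold 95% intervals that cover counting error only.

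**Figure D1:**
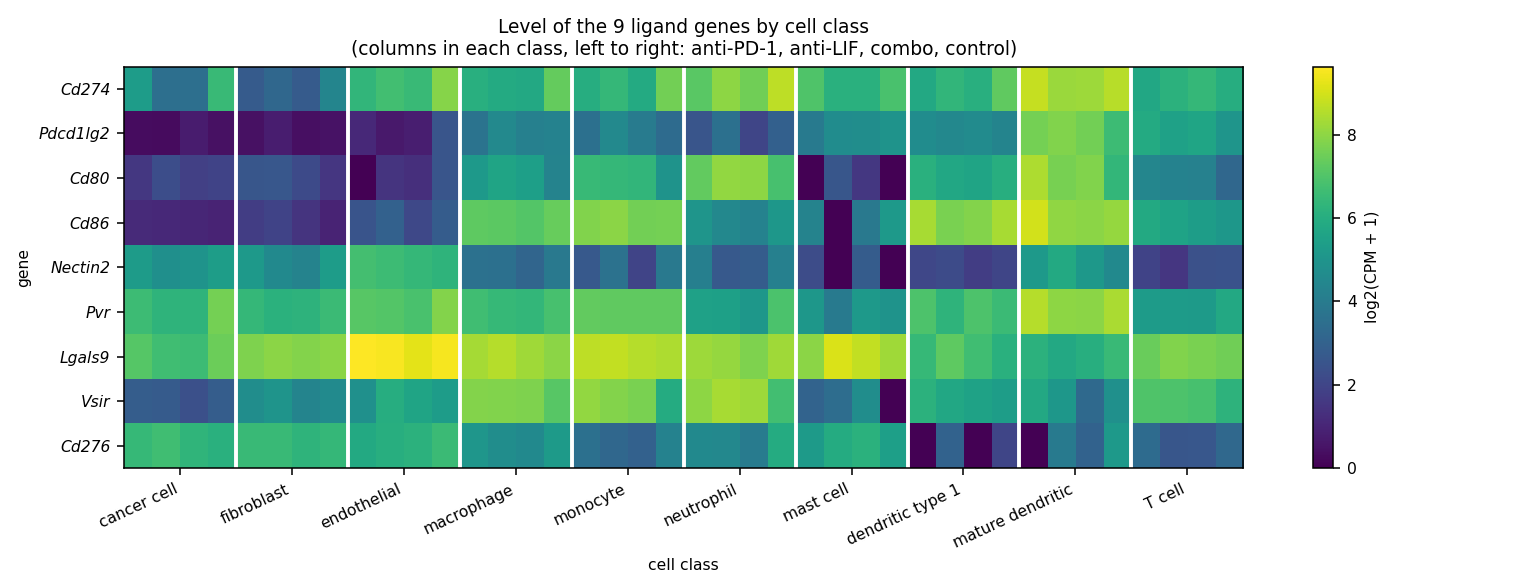
Levels of the 9 ligand genes, as log2(CPM + 1), in the 10 cell classes with at least 50 cells in every library. Within each class the columns are the anti-PD-1, anti-LIF, combo and control libraries. Averaged over the libraries, Cd86 and Pdcd1lg2 were highest in mature dendritic cells, Lgals9 and Nectin2 in endothelial cells, and Cd276 in fibroblasts and cancer cells.

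The ligands of PD-1 had different ranges across classes. Averaged over the 4 libraries, Cd274 was highest in mature dendritic cells at 354 CPM, followed by neutrophils at 249 and endothelial cells at 128 CPM. Monocytes (99.5), mast cells (94.9), type 1 dendritic cells (89.9) and macrophages (85.3 CPM) came next, and the ranges of these neighbours over the libraries overlapped. T cells averaged 67.8, cancer cells 38.1 and fibroblasts 9.999 CPM. In control, plasma cells, which reached 50 cells in that library alone, had 294 CPM. Pdcd1lg2 averaged 176 CPM in mature dendritic cells and 45.8 CPM in T cells, and neither range overlapped that of the class below it. It averaged 0.441 CPM in fibroblasts and 0.367 CPM in cancer cells, the 2 classes that were also lowest for Cd274.

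Cd274 in cancer cells was 39.2 CPM with anti-PD-1 (36.6 to 42.0), 10.5 with anti-LIF (8.91 to 12.3) and 10.3 with combo (9.10 to 11.7), against 92.3 CPM in control (89.75 to 94.999). All 3 treated libraries lay below control, and anti-LIF and combo lay below anti-PD-1. The log2 ratio to control was -1.24 with anti-PD-1 (-1.34 to -1.13), -3.14 with anti-LIF (-3.38 to -2.90) and -3.16 with combo (-3.35 to -2.98). These are 2.36-fold, 8.79-fold and 8.94-fold lower levels. The median log2 ratio of all genes tested in cancer cells was 0.16, 0.20 and 0.17 in the same order, and relative to it Cd274 was at -1.40, -3.33 and -3.33. Combo was 3.79-fold lower than anti-PD-1 (log2 ratio -1.92, -2.13 to -1.72), and combo and anti-LIF differed by -0.02 (-0.32 to 0.28).

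The share of cancer cells with a Cd274 UMI was 15.2% with anti-PD-1, 4.57% with anti-LIF and 6.54% with combo, against 29.7% in control. Median depths of these cells were 5947, 3873 and 7352.5 UMIs, against 9384 in control. After thinning each cell to 1000 UMIs the shares were 3.47%, 0.778% and 0.983%, against 8.11% in control. In fibroblasts, the class with the least Cd274, the thinned shares were 0.808%, 0.594% and 0.787%, against 1.92% in control, at median depths of 2229, 2119.5, 3973 and 3922 UMIs before thinning. The thinned shares of anti-LIF and combo cancer cells (intervals 0.389% to 1.39% and 0.563% to 1.59%) thus overlapped those of fibroblasts (0.307% to 1.03% and 0.475% to 1.23%), while control cancer cells were above both.

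Cancer cells of the libraries fell into different Leiden clusters. Clusters 3 (leading genes Enpp2, Mgp and Dpt) and 5 (Igf2, 3110039M20Rik and Bmp4) held 41.7% and 40.4% of control cancer cells. They held 21.9% and 25.5% with anti-PD-1, 5.66% and 6.99% with anti-LIF, and 8.33% and 7.23% with combo. Clusters 1 (Dcpp1, Krt18) and 11 (Acta2, Col18a1) held most of the anti-LIF and combo cells. Within cluster 5, Cd274 was 84.6, 82.0 and 54.0 CPM for anti-PD-1, anti-LIF and combo, against 124 CPM in control. Within cluster 3 it was 55.2, 13.9 and 39.1 CPM, against 77.7 in control. In cluster 1 it was 7.32, 5.28 and 4.13 CPM, against 22.6 in control, and in cluster 11 it was 7.51, 6.13 and 4.44 CPM, against 12.7 in control. Every treated library was below control in each of these 4 clusters, and clusters 1 and 11 were below clusters 3 and 5 in control too. Cluster 18, with Prl2c2 and Prl2c3 first, held 22.1% of anti-LIF cancer cells, had 3.42 CPM there, and did not reach 50 cells in control.

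**Figure D2:**
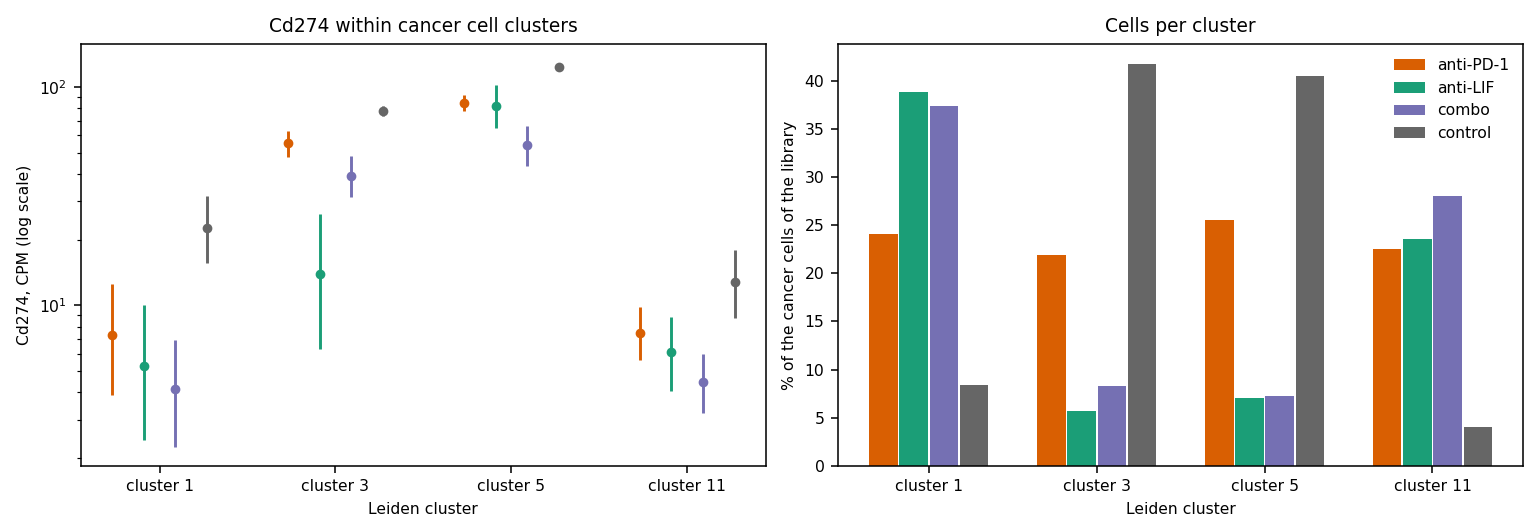
Left, Cd274 in CPM on a log axis within 4 Leiden clusters of cancer cells, with 95% counting intervals, by library. Right, the share of each library's cancer cells in those clusters. Control had the highest Cd274 level in each of the 4 clusters and most of its cells in clusters 3 and 5, where levels were higher.

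Macrophages had 66.1, 58.5 and 55.3 CPM of Cd274 for anti-PD-1, anti-LIF and combo, against 161 CPM in control. The log2 ratios were -1.29 (-1.47 to -1.10), -1.46 (-1.65 to -1.27) and -1.54 (-1.72 to -1.36). Summed markers of cancer cells in these macrophages were 195, 135 and 133 CPM, against 538 CPM in control, and their part in the result was not tested. Within C1q macrophage cluster 6, Cd274 was 51.4, 29.8 and 36.7 CPM, against 160.4 CPM in control, and within cluster 8 it was 69.9, 55.5 and 56.1 CPM, against 177 in control. Clusters 7, 12 and 16 held macrophages of treated libraries and did not reach 50 cells in control.

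The other classes with lower Cd274 were of several lineages. Monocytes had 64.0, 85.6 and 58.8 CPM for anti-PD-1, anti-LIF and combo, against 189.7 in control. Endothelial cells had 79.5, 104 and 92.1 CPM, against 238 in control. Neutrophils had 145, 253 and 184 CPM, against 413 in control, and the ratio of anti-LIF, -0.71 (-1.18 to -0.26), did not reach 2-fold. Type 1 dendritic cells had 55.8, 79.9 and 67.1 CPM, against 157 in control. Fibroblasts had 5.84, 8.22 and 5.87 CPM, against 20.1 in control. In these 5 classes, as in macrophages and cancer cells, each treated library was below control. Summed cancer cell markers were 105, 86.2 and 112 CPM in monocytes, against 266 in control, and 122, 95.5 and 125 CPM in endothelial cells, against 295 in control. In type 1 dendritic cells, mature dendritic cell markers were 124, 58.1 and 79.0 CPM, against 425 in control, and T cell markers 18.6, 21.8 and 0 CPM, against 170.3 in control. In neutrophils the class's own markers summed to 84868, 75515 and 43687 CPM, against 33464 in control. The part of these markers in the result was not tested. With each cell weighted equally the fibroblast log2 ratios were -0.85 with anti-PD-1 and -0.89 with anti-LIF, against -1.78 and -1.29 as summed, and endothelial cells with anti-LIF were at -0.94, all short of 2-fold. Neutrophils with combo were at -0.97 when classes came from Leiden clusters.

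Cd274 in T cells was 53.4 CPM with anti-PD-1, 71.3 with anti-LIF and 84.0 with combo, against 62.7 CPM in control, with log2 ratios of -0.23 (-0.51 to 0.04), 0.19 (-0.11 to 0.47) and 0.42 (0.19 to 0.65). By subset the combo ratio was 0.60 in CD8 T cells (0.15 to 1.02) and 0.53 in gamma delta T cells (-0.54 to 1.55). It was -0.18 in regulatory T cells (-0.73 to 0.38) and -0.23 in conventional CD4 T cells (-0.88 to 0.39). Mature dendritic cells had 443, 292 and 299.8 CPM, against 383 in control, with log2 ratios of 0.21 (-0.23 to 0.65), -0.40 (-0.81 to 0.02) and -0.36 (-0.74 to 0.04). Neither class reached a 2-fold difference. Summed cancer cell markers in T cells were 123, 109.8 and 118 CPM, against 241 in control. Counted over the classes tested, Cd274 was below control in 8 of 10 classes for anti-PD-1, 8 of 9 for anti-LIF and 9 of 10 for combo. The 3 comparisons share the control library.

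**Figure D3:**
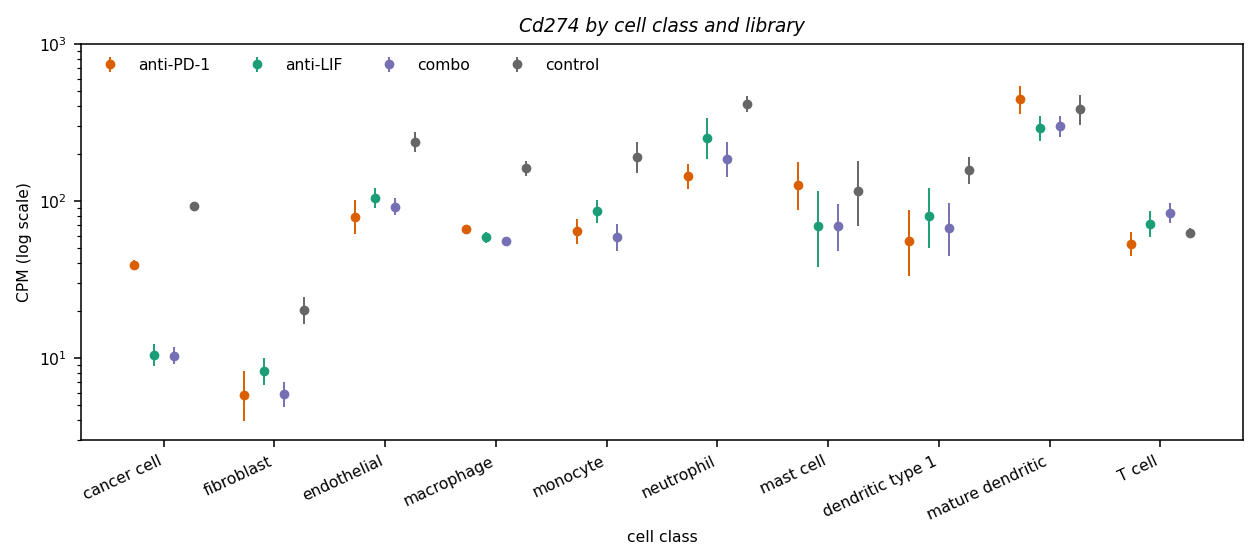
Cd274 in CPM on a log axis for 10 cell classes and the 4 libraries, with 95% counting intervals. Control lies above all treated libraries in cancer cells, fibroblasts, endothelial cells, macrophages, monocytes, neutrophils and type 1 dendritic cells, and within their range in mature dendritic cells and T cells.

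Of all Cd274 UMIs in kept cells, cancer cells gave 26.5% with anti-PD-1, 7.98% with anti-LIF and 9.16% with combo, against 49.9% in control. Macrophages gave 27.2% with anti-PD-1, 35.8% with anti-LIF and 36.5% with combo, against 3.54% in control. These shares hold both the number of cells of each class and the level per cell.

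Pdcd1lg2 did not share this pattern. In mature dendritic cells it was 196, 222 and 189 CPM for anti-PD-1, anti-LIF and combo, against 95.9 CPM in control, with log2 ratios of 1.03 (0.25 to 1.86), 1.21 (0.52 to 1.97) and 0.98 (0.30 to 1.73). The control value rests on 21 UMIs in 12 of 52 cells. In these cells the summed markers of the class itself were 12840, 12042 and 14208 CPM, against 8003 in control, and those of cancer cells 86.8, 95.6 and 145 CPM, against 575 in control, and their part in the result was not tested. With each cell weighted equally the ratios of anti-PD-1 and anti-LIF were 0.31 and 0.38, and so below 2-fold. In T cells Pdcd1lg2 was 58.4, 44.2 and 49.3 CPM, against 31.6 in control, and in macrophages 11.8, 22.5 and 17.2 CPM, against 18.4 in control. In monocytes anti-LIF was at a log2 ratio of 1.26, with an interval of -0.22 to 3.21, and at 0.58 without cells near the gate. Treated libraries lay on both sides of control in macrophages, and all treated libraries were above control in T cells as a whole by less than 2-fold. With anti-LIF and combo, CD8 T cells had 21.8 and 36.5 CPM, against 28.7 in control. Regulatory T cells had 67.8 and 77.2 CPM, against 52.2, and conventional CD4 T cells 46.4 and 45.4 CPM, against 43.0. CD8 T cells numbered 376 with anti-LIF and 448 with combo, against 3795 in control. The part of this mix was not tested.

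Cd80 and Cd86, the ligands shared by CD28 and CTLA-4, were highest in myeloid cells. Averaged over libraries, Cd80 was 214 CPM in mature dendritic cells and 199.8 CPM in neutrophils, with overlapping ranges, then 71.0 in monocytes and 58.8 in type 1 dendritic cells. Cd86 was 323 CPM in mature dendritic cells, 276 in type 1 dendritic cells, 214 in monocytes and 148 in macrophages, and the ranges of the dendritic classes overlapped. It was 26.2 CPM in neutrophils and 1.09 CPM in cancer cells.

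Cd80 was higher than control in most classes of the treated libraries. Mature dendritic cells had 352, 201 and 223 CPM for anti-PD-1, anti-LIF and combo, against 82.2 CPM in control, with log2 ratios of 2.10 (1.34 to 2.93), 1.29 (0.54 to 2.11) and 1.44 (0.72 to 2.24). Monocytes had 89.8, 84.4 and 79.8 CPM, against 30.1 in control, with log2 ratios of 1.58 (0.76 to 2.52), 1.49 (0.67 to 2.43) and 1.41 (0.59 to 2.35). The control values rest on 18 UMIs in 13 mature dendritic cells and 13 UMIs in 10 monocytes. The markers that differed between libraries in mature dendritic cells, given with Pdcd1lg2, move with Cd80 too. In monocytes macrophage markers were 1996, 2108 and 2612 CPM, against 567 in control, and T cell markers were also uneven, as given with Vsir. Their part in the results was not tested. With at most 10% mitochondrial UMIs the monocyte ratio of combo was 0.97, short of 2-fold. Macrophages had 36.5, 48.5 and 42.4 CPM, against 18.9 in control, and T cells 20.6, 18.3 and 17.99 CPM, against 8.30 in control. Some macrophage clusters of the treated libraries had too few control cells for a comparison, as given above. The part of this cluster mix in the macrophage values of Cd80 was not tested. Neutrophils had 160.3, 269 and 257 CPM, against 113 in control. Several of these calls ended under other settings, at the lowest 0.81 and 0.71 in neutrophils with anti-LIF and combo, 0.92 in macrophages with combo, and 0.95 and 0.98 in T cells with anti-LIF and combo. Type 1 dendritic cells, at 68.2, 54.5 and 47.9 CPM against 64.8 in control, and cancer cells, at 1.96, 3.803 and 2.50 CPM against 2.81, did not have this difference. Fibroblasts had low levels, 4.93, 5.19 and 3.48 CPM of Cd80, against 1.89 in control, and 2.37, 2.87 and 1.74 CPM of Cd86, against 0.947 in control. The control values rest on 10 UMIs of Cd80 and 5 of Cd86. With classes from Leiden clusters the Cd86 ratio of anti-LIF was 0.15, against 1.60 by marker genes, and the Cd80 ratio of anti-PD-1 was 0.93, both short of 2-fold. Summed macrophage markers in fibroblasts were 179.5, 185 and 172 CPM, against 86.9 in control, and their part in the result was not tested.

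Cd86 in macrophages was 150.03, 146 and 131 CPM for anti-PD-1, anti-LIF and combo, against 167 CPM in control, and in monocytes 222, 247 and 193 CPM, against 194 in control. Its log2 ratios in these classes lay between -0.35 and 0.35. Mature dendritic cells had 502 CPM with anti-PD-1, 261 with anti-LIF and 252 with combo, against 278 in control, so that anti-PD-1 alone was high. Among T cells, CD8 T cells had 77.1, 68.9 and 86.4 CPM, against 34.3 in control, with log2 ratios of 1.17 (0.84 to 1.48), 1.01 (0.48 to 1.499) and 1.33 (0.92 to 1.73). Conventional CD4 T cells had 43.5, 37.1 and 17.7 CPM, against 38.2 in control. After thinning to 1000 UMIs, 8.72%, 7.51% and 8.36% of CD8 T cells had a Cd86 UMI, against 3.60% in control. In cancer cells, where Cd86 was on average lowest of the 10 classes, the thinned shares were 0.325%, 0.354% and 0.123%, against 0.0884% in control. Summed macrophage markers in cancer cells were 71.5, 62.5 and 66.4 CPM, against 18.5 in control. In treated libraries these are lower than in T cells, given below, so the cancer cell shares set no floor for T cells. Median depths before thinning were 1245, 1112 and 1422.5 UMIs in CD8 T cells, against 1600 in control. Summed macrophage markers in T cells were 182, 158 and 163 CPM, against 20.9 CPM in control, and their part in the results of Cd80, Cd86 and Vsir in T cells was not tested.

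The ligands of TIGIT and CD226 were found in stromal, tumour and dendritic cells. Averaged over libraries, Nectin2 was 90.8 CPM in endothelial cells, above the other 9 of the 10 classes in every library, then 37.7 in mature dendritic cells, 33.7 in cancer cells and 29.1 in fibroblasts. Pvr was 304 CPM in mature dendritic cells, with no overlap with the next class, then 156 in monocytes, 153 in endothelial cells and 111 in cancer cells. Pvr was lowest in mast cells at 28.5 CPM, a 10.6-fold range over the 10 classes. Lgals9 had a like range of 10.1-fold, and the other members ranged more widely.

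Pvr in cancer cells was 97.5 CPM with anti-PD-1 (93.3 to 102), 76.6 with anti-LIF (72.1 to 81.2) and 75.9 with combo (72.5 to 79.5), against 195 CPM in control (191 to 199). The log2 ratios were -1.002 (-1.07 to -0.93), -1.35 (-1.44 to -1.26) and -1.36 (-1.43 to -1.29), or -1.16, -1.55 and -1.53 relative to the median gene. The anti-PD-1 value lies at the 2-fold line, and it was -0.80 in cells with at most 10% mitochondrial UMIs. Within cluster 3 Pvr was 127, 122 and 123 CPM, against 256 in control, and within cluster 11 it was 96.7, 83.2 and 78.3 CPM, against 133 in control. Monocytes had 158, 153 and 156 CPM, against 155 in control, and did not share the difference. Endothelial cells had 138, 132 and 115 CPM, against 227 in control, all short of 2-fold. Smaller differences were seen in macrophages as a class, at 101, 87.7 and 82.8 CPM against 114 in control. Within macrophage clusters 6 and 8 the direction was the other way. Cluster 6 had 102, 91.1 and 82.7 CPM against 74.6 in control, and cluster 8 had 89.6, 80.0 and 80.4 CPM against 66.8. Cluster 25, with Retnla, Enpp2 and Igf2 first, had 194.5 CPM in 52 control cells and 121 CPM with anti-PD-1. Its part in the class value was not tested. T cells had 38.2, 38.5 and 36.8 CPM, against 54.8 in control. Counted over the classes tested, Pvr was below control in 6 of 9 classes for anti-PD-1, 9 of 9 for anti-LIF and 7 of 9 for combo.

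Pvr in neutrophils was 44.6, 43.0 and 33.2 CPM for anti-PD-1, anti-LIF and combo, against 119.8 CPM in control, and Cd276 there was 22.9, 21.5 and 15.1 CPM, against 60.6 in control. These values rest on few UMIs, 37, 8 and 11 against 89 for Pvr and 19, 4 and 5 against 45 for Cd276. The 10 cells with the most UMIs held 51.7% or more of them in each library. Without the 5% of cells with the most UMIs the ratio of Cd276 turned to 0.20 with anti-PD-1 and 0.86 with anti-LIF. The ratio of Pvr with anti-LIF was -1.48, and -0.49 with classes from Leiden clusters. Summed cancer cell markers in neutrophils were 436, 409 and 341 CPM, against 547 in control, and their part in the result was not tested.

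Nectin2 in cancer cells was 38.4, 26.7 and 29.6 CPM for anti-PD-1, anti-LIF and combo, against 40.2 in control. Within cluster 3 the direction was the other way, at 61.2, 61.6 and 81.0 CPM, against 43.9 in control. Anti-LIF was also at 32.9 CPM in cluster 1, 41.0 in cluster 5 and 30.9 in cluster 11, against 19.2, 38.9 and 29.3 CPM in control. In fibroblasts Nectin2 was 35.8, 22.6 and 18.6 CPM, against 39.4 in control. The fibroblast log2 ratios were -0.14 (-0.43 to 0.15), -0.80 (-1.06 to -0.54) and -1.08 (-1.33 to -0.83), and only combo reached 2-fold. With each cell weighted equally, combo was at -0.84. Endothelial cells had 106, 96.1 and 84.4 CPM, against 76.6 in control, a difference within counting error for each library. In T cells it was 2.88, 1.89 and 4.28 CPM, against 4.31 in control, and the anti-LIF value, past 2-fold, rests on 3 UMIs.

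Lgals9, Vsir and Cd276 split between endothelial, myeloid and stromal cells. Lgals9 averaged 717 CPM in endothelial cells, above the other 9 of the 10 classes in every library, then 391 in monocytes and 383 in mast cells, and was lowest in mature dendritic cells at 70.9 CPM. B cells, which reached 50 cells with combo alone, had 709.8 CPM there, against 598 CPM in endothelial cells of that library. In endothelial cells it was 795, 747 and 598 CPM for anti-PD-1, anti-LIF and combo, against 728 in control. In cancer cells it was 135, 102 and 96.5 CPM, against 176 in control, with log2 ratios of -0.38 (-0.44 to -0.32), -0.78 (-0.86 to -0.70) and -0.86 (-0.93 to -0.80), below control in all 3 libraries and short of 2-fold. Within the cancer cell clusters this did not hold for anti-LIF, where Lgals9 in clusters 1, 3, 5 and 11 was 93.3, 199, 198 and 134 CPM, against 90.5, 174, 189 and 133 CPM in control. Type 1 dendritic cells had 86.8, 153 and 103 CPM, against 67.8 in control, where anti-LIF was past 2-fold (log2 ratio 1.17, 0.53 to 1.81).

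Vsir averaged 247 CPM in neutrophils, 202 in macrophages, 192 in monocytes and 108 in T cells, and 5.57 CPM in cancer cells. Monocytes had 268 CPM with anti-PD-1 (245 to 293), 229.9 with anti-LIF (208 to 254) and 209 with combo (188 to 232), against 60.2 CPM in control (39.3 to 88.1). The log2 ratios were 2.16 (1.59 to 2.79), 1.93 (1.36 to 2.57) and 1.80 (1.22 to 2.43), or 2.02, 1.81 and 1.70 relative to the median gene. Summed macrophage markers in these monocytes were 1996, 2108 and 2612 CPM, against 567 CPM in control, and T cell markers 17.7, 23.95 and 32.0 CPM, against 310.0 in control, and their part in the result was not tested. Neutrophils had 257, 328 and 299 CPM of Vsir, against 104 in control. The neutrophil log2 ratios were 1.31 (0.93 to 1.70), 1.66 (1.15 to 2.17) and 1.53 (1.08 to 1.98). With each cell weighted equally they were 0.83, 0.96 and 0.91, short of 2-fold. Macrophages had 230.1, 223 and 217 CPM, against 139.9 in control, and T cells 124, 122 and 113 CPM, against 74.6 in control. In these 4 classes every treated library was above control, by less than 2-fold in macrophages and T cells. Within macrophage cluster 8 Vsir was 284, 226 and 250 CPM, against 198 in control. There the intervals of anti-LIF (209 to 245) and control (170 to 229) overlapped. In cluster 6 it was 190, 215 and 169 CPM, against 153 in control. Cluster 25 did not share the difference, at 56.3 CPM with anti-PD-1, against 56.9 in control. It held 2.39% of anti-PD-1 macrophages and 10.9% of control macrophages, and the part of this in the class value was not tested.

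Cd276 averaged 85.9 CPM in fibroblasts, 84.1 in cancer cells and 71.8 in endothelial cells, and these 3 ranges overlapped. In cancer cells it was 86.6, 103 and 77.7 CPM for anti-PD-1, anti-LIF and combo, against 69.1 in control. In fibroblasts it was 91.4, 91.7 and 76.2 CPM, against 84.3 in control. The cancer cell log2 ratios were 0.33 (0.24 to 0.41), 0.58 (0.49 to 0.66) and 0.17 (0.09 to 0.25). Relative to the median gene they were 0.16, 0.38 and 0.00045, so that combo did not differ from it, and within cluster 3 combo was at 72.8 CPM, against 79.5 in control.

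**Figure D4:**
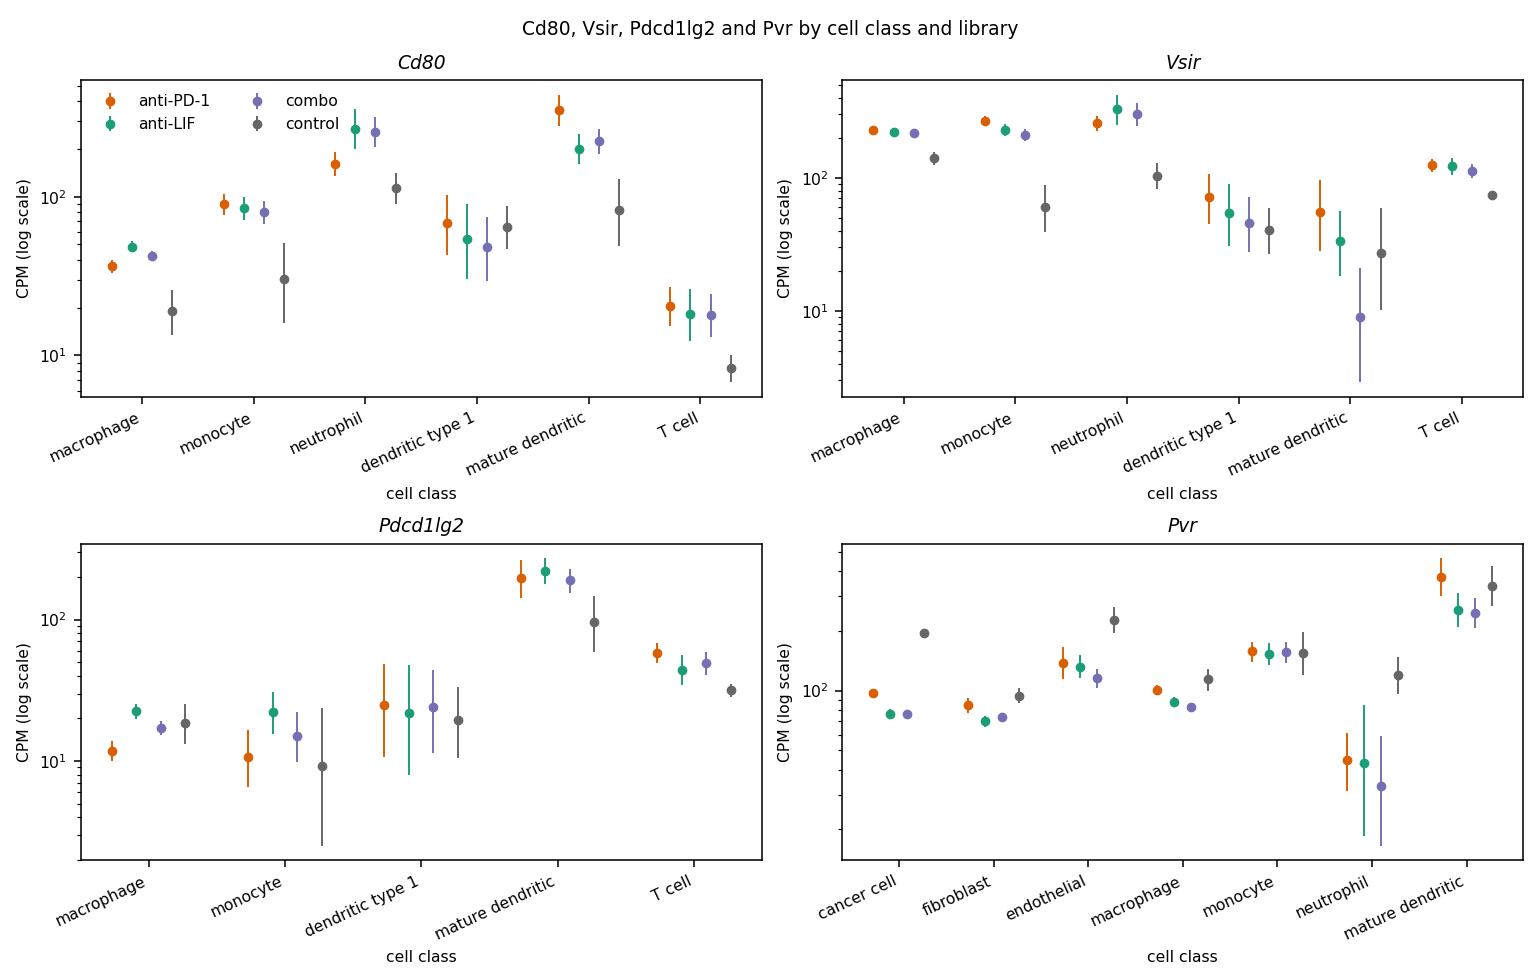
Cd80, Vsir, Pdcd1lg2 and Pvr in CPM on log axes, in classes chosen for display, some with few UMIs, with 95% counting intervals, for the 4 libraries. Control is lowest for Cd80 in macrophages, monocytes, neutrophils, mature dendritic cells and T cells and for Vsir in macrophages, monocytes, neutrophils and T cells. It is highest for Pvr in cancer cells, fibroblasts, endothelial cells, macrophages and neutrophils. Within macrophage clusters 6 and 8, which are not drawn, control was lowest for Pvr.

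A member was counted as past 2-fold among those with at least 20 UMIs in at least 1 of the libraries compared, and the same share over all genes of the class is given as background. In cancer cells 2 of 8 members, Cd274 and Pvr, were past 2-fold in each treated library, beside 9.04% of genes with anti-PD-1, 17.9% with anti-LIF and 15.3% with combo. In macrophages the counts were 1 of 9 with anti-PD-1 and 2 of 9 with anti-LIF and with combo, beside 12.7%, 18.1% and 19.7% of genes. In monocytes they were 3 of 8, 4 of 7 and 3 of 7, beside 19.2%, 19.5% and 18.3%. In neutrophils they were 4 of 7, 4 of 7 and 5 of 7, beside 12.4%, 29.3% and 26.1%. T cells had 1 of 9, 2 of 9 and 1 of 9, beside 9.38%, 16.9% and 14.0%. Fibroblasts had 2 of 7, 3 of 8 and 2 of 8, beside 7.29%, 7.55% and 8.22%, and endothelial cells had 1 of 6 in each, beside 9.02%, 11.9% and 12.1%. The counts in macrophages, T cells and endothelial cells are near the background, as are those in cancer cells with anti-LIF and combo. At most 9 members were tested per class, so a single gene moves each share widely. The members were chosen for their function and not at random, so the counts are descriptions.

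**Figure D5:**
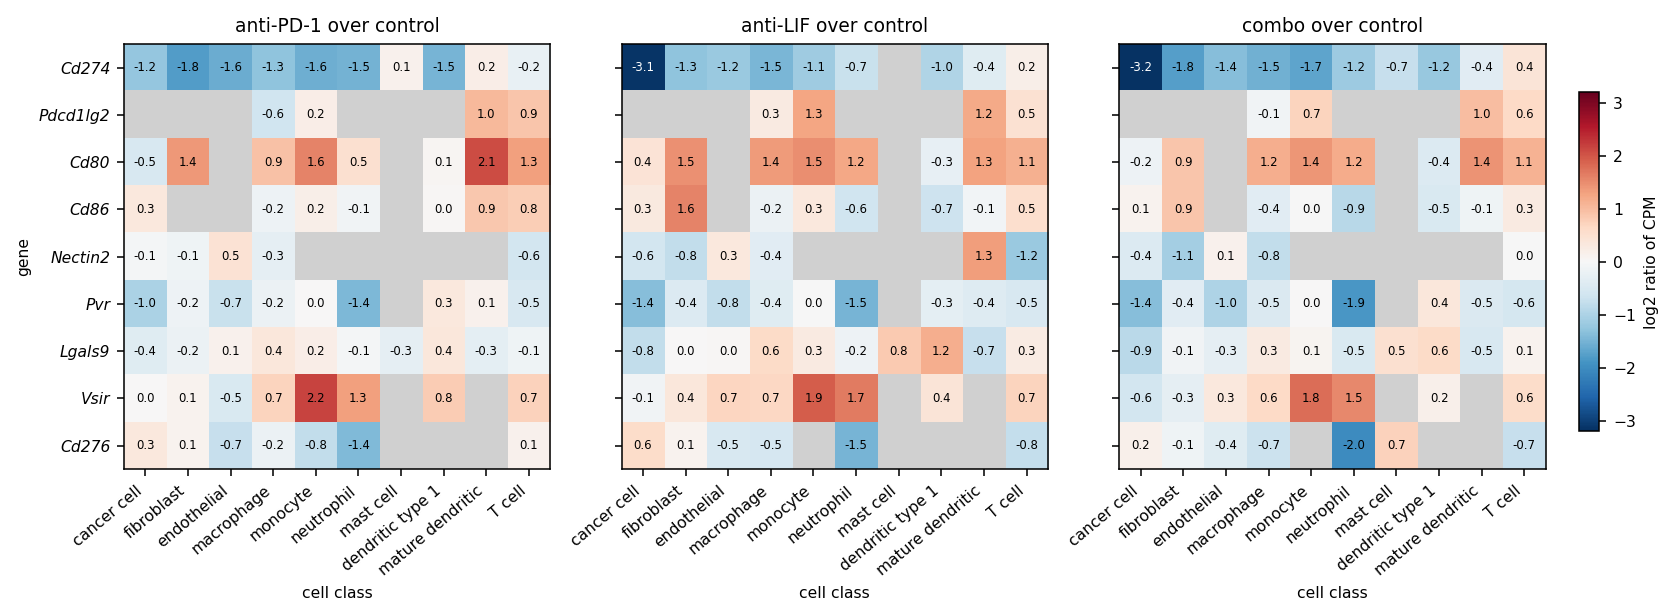
Log2 ratio of CPM between each treated library and control for the 9 genes in 10 cell classes. Blue is lower and red higher than control, and grey marks genes with fewer than 20 UMIs in both libraries or 0 UMIs in 1 of them. The Cd274 row is blue in most classes, with the lowest values, -3.14 with anti-LIF and -3.16 with combo, in cancer cells.

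Genes of the interferon gamma pathway were described beside Cd274. In cancer cells all 16 genes of the list were tested, and 4 with anti-PD-1, 11 with anti-LIF and 11 with combo were at least 2-fold lower than control, with none higher, beside 4.52%, 8.16% and 7.67% of all genes lower. The median log2 ratio of the list was -0.73, -1.74 and -1.98, beside 0.16, 0.20 and 0.17 for all genes. Cxcl10, a chemokine for T cells, was 252, 72.7 and 93.6 CPM, against 617 in control, and Gbp2, an interferon-induced GTPase, was 543, 165 and 162 CPM, against 1277 in control. The receptor chains differed less, with Ifngr1 at 58.5, 50.7 and 54.95 CPM against 61.2 in control, and Ifngr2 at 60.0, 59.1 and 55.03 CPM against 47.0. In macrophages 1, 6 and 6 of the 16 genes were at least 2-fold lower and none higher, beside 4.57%, 7.28% and 8.23% of all genes lower, with list medians of -0.46, -0.43 and -0.66. In T cells 1 of 16 was lower in each library and 0, 4 and 2 were higher, beside 4.63%, 9.92% and 7.51% of all genes lower and 4.75%, 7.03% and 6.54% higher, with medians of 0.10, 0.24 and 0.23.

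Of 12 other genes of the B7, nectin and inhibitory ligand families, 5 were tested in cancer cells. None was past 2-fold with anti-PD-1, and 1, H2-T23, a nonclassical class I gene, was with anti-LIF and combo, at 265 and 265 CPM, against 818 CPM in control, beside the shares of lower genes in cancer cells just given. In macrophages 7, 7 and 8 were tested, of which 0, 1 and 1 were at least 2-fold lower and 1, 2 and 1 higher, beside 8.18%, 10.8% and 11.5% of all genes higher. Ceacam1, a ligand reported for TIM-3, was 8.79, 19.6 and 23.5 CPM in macrophages for anti-PD-1, anti-LIF and combo, against 0.945 CPM in control, where it rested on 2 UMIs, with log2 ratios of 3.22 (1.33 to 6.28), 4.37 (2.50 to 7.43) and 4.64 (2.78 to 7.69). The receptors of the ligands were read in T cells, where all 8 were tested. Past 2-fold were 3 higher with anti-PD-1, 2 higher and 1 lower with anti-LIF, and 2 higher with combo, beside the shares for T cells given above. The list medians were 0.54, 0.35 and 0.57, beside 0.06, 0.0024 and 0.04 for all genes. Cd226 was 122, 107 and 89.5 CPM, against 34.9 in control, Tigit was 53.4, 45.4 and 44.1 CPM, against 21.0 in control, and Pdcd1 was 342, 184 and 227 CPM, against 152 in control. Pvrig, the gene lower with anti-LIF, was 2.52 CPM there, against 5.13 CPM in control.

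Likeness to each member was measured as the Pearson correlation of log2(CPM + 1) over 50 pairs of class and library, among 13775 genes. The pairs share libraries and depth, so the values are descriptions. The 3 genes most like Cd274 included H2-D1 (0.80) and B2m (0.75). For Pdcd1lg2 they were Gpr183 (0.89), Gpr65 (0.87) and Rgs1 (0.86). For Cd80 they were Icosl (0.92), Rab11fip1 (0.91) and Adam8 (0.90), and for Cd86 they were Irf5 (0.91), Bcl2a1d (0.87) and Ctss (0.87). Nectin2 was most like Dock6 (0.82), Dstn (0.79) and Ppfibp1 (0.78), and Pvr most like Clic4 (0.83), Cttnbp2nl (0.80) and Fkbp1b (0.80). Lgals9 was most like Zdhhc20 (0.80), Gbp7 (0.76) and Tmem50a (0.76), Vsir most like Tmem189 (0.84), Slc15a3 (0.82) and Kbtbd7 (0.80), and Cd276 most like Tspan4 (0.90), Cdc42bpa (0.85) and Spats2 (0.84). Among the members themselves the highest value was 0.75 between Cd80 and Cd86. The chromosome 19 neighbours Cd274 and Pdcd1lg2 had 0.56, the highest value of Cd274 with another member, followed by 0.54 with Cd86.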

How the data were processed

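The 4 libraries were made with a SeekOne 3′ single-cell kit. The authors deposited raw UMI counts as sparse matrices, each with its lists of barcodes and genes. The build mm10 and Seurat 4.0.3 are named per the submitters' processing notes, without a role, and the aligner, counter and cell calling are not given in the sources used here. Per the labels, removal of debris and dead cells was optional, and red blood cells were removed.

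The cell filter required 200 detected genes and a mitochondrial share of no more than 20%. A class was open to a cell when at least 2 of its markers were present and their UMIs reached 10 per 10000 (300 for fibroblasts). The cell entered the open class with the largest share of its markers present. It was left out when an open class of another lineage reached 50% of that share of markers. Classes of the same lineage did not exclude a cell. These thresholds, and the removal of host gland cells by Epcam, Wfdc18 and Csn3, were set after seeing the data. No doublet caller was run, and cells with markers of several lineages, 9.88% of those kept, were left out as mixed. UMIs were summed per class and library where at least 50 cells were present, and given as CPM with exact Poisson intervals. Log2 ratios have exact conditional intervals, and a call is a 2-fold difference. Intervals cover counting error only. Leiden clusters (scanpy 1.11.5, 2000 variable genes without the 9 members, 30 components, 15 neighbours, resolution 1) gave the alternative classes. Python 3.11.15 and scipy 1.17.1 were used, and the procedures were tested on simulated counts. The members and gene lists were chosen with earlier results of these data known. All 9 members are named, with the 3 genes most like each and up to 4 genes of a list with the largest change. Ifngr1, Ifngr2 and Ceacam1 were named after their values were seen. An item that these rules name is not reported here.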

Additional observations from a re-analysis of the deposited data

Results flagged for a closer look

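Nectin2 moved in opposite directions in the anti-LIF library in a pair of classes, and the difference between the classes was not tested. In T cells its log2 ratio to control was -1.19, at 1.89 CPM in anti-LIF, against 4.31 CPM in control, and rests on 3 UMIs in anti-LIF, against 53 in control. In mature dendritic cells the ratio was 1.33, at 57.4 CPM in anti-LIF, against 22.8 CPM in control, and rests on 24 UMIs in anti-LIF, against 5 in control. Both intervals include 0, from -3.51 to 0.44 in T cells and from -0.09 to 3.08 in mature dendritic cells.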

How the results depend on the processing

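Of 57 ratios past 2-fold, 31 stayed past it under all 9 alternatives that gave a value, 2 of which were chosen after seeing the data, and 454 of 461 values kept their direction. In cells with at most 10% mitochondrial UMIs, Cd274 in cancer cells was at -1.04 with anti-PD-1, -3.73 with anti-LIF and -4.32 with combo. Without cells near the gate it was -1.67 with anti-PD-1 and -3.71 with combo, and without the 5% of cells with the most UMIs -2.96 with combo. Cells near the gate were 60% of cancer cells with anti-PD-1, 41.6% with anti-LIF and 43.5% with combo, against 49.7% in control. Over all libraries they were 8.54% of macrophages, 10.7% of T cells, 27.7% of monocytes and 39.1% of type 1 dendritic cells. In monocytes they were 23.4% with anti-PD-1, 28.5% with anti-LIF and 25.6% with combo, against 47.2% in control. With classes from Leiden clusters, Cd274 in macrophages was -1.25 with anti-LIF and -1.34 with combo. The count of members past 2-fold in anti-PD-1 cancer cells was 1 with the mitochondrial limit, without the 5% of cells with the most UMIs and without shared barcodes, as Pvr left the call. In macrophages it was 2 with anti-PD-1 without those 5% and with at least 1000 UMIs per cell, and 1 with combo with the mitochondrial limit and without cells near the gate. In neutrophils it was 2 with anti-PD-1 and 3 with combo with cells weighted equally, and 2 with anti-PD-1 and with anti-LIF without those 5%. With the mitochondrial limit it was 2 in neutrophils with anti-LIF. Directions turned for Cd276 in neutrophils, at 0.20 with anti-PD-1 and 0.86 with anti-LIF without those 5% and 0.61 with anti-LIF with cells weighted equally. They turned for Nectin2 in T cells with anti-LIF, at 0.10 with Leiden classes, 0.33 with the mitochondrial limit, 0.014 with cells weighted equally and 0.29 without those 5%. The cause was not tested. By Spearman correlation 0 of the 3 genes most like Cd274 were shared. The same held for Lgals9, and the lists of the other members were shared only in part. With cells weighted equally 228 of 249 levels stayed within 1.5-fold, and with Leiden classes 166 of 179. No Leiden cluster was named monocyte or dendritic, so these classes have no value there. No paired analysis was possible because each group has 1 library. Depth limits the classes with few control cells, such as 52 mature dendritic cells and 176 monocytes.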

Other observations

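Between the treated libraries, Cd80 in combo was within 2-fold of anti-PD-1 and of anti-LIF in all 9 classes tested in each comparison. Cd86 in combo was below anti-PD-1 in 9 of 9 classes tested, with log2 ratios from -0.998 in mature dendritic cells to -0.20 in macrophages. Vsir in combo was below anti-LIF in 8 of 8 classes tested, with log2 ratios from -0.65 in fibroblasts to -0.03 in macrophages. Cd274 in combo was past 2-fold below anti-PD-1 in 2 of 11 classes tested, and past 2-fold from anti-LIF in 0 of 11.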
